A study of Homo sapiens with 18 samples.

Results

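Copanlisib is an intravenous inhibitor of class I phosphoinositide 3-kinases (PI3K) with its strongest action on the alpha and delta forms. The comparison described here is the earliest one in a time series on HAIR-M, a human B cell line labelled as MZL (marginal zone lymphoma): 3 RNA-seq libraries of cells given 5 nM copanlisib for 4 h against 3 libraries of cells given the solvent DMSO for 4 h. These 6 libraries were chosen by the treatment and time in their labels, out of 18. The other 12 hold the same pair of treatments at 8 h and 12 h and enter only where the 4 h effect is set against the later ones. No genotype change, second drug or antigen stimulus is named in the labels, and all cells are of 1 line. Whether the replicates were grown apart is not stated, so p-values measure the spread between these libraries, which may be technical.

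Class I PI3K makes the membrane lipid phosphatidylinositol trisphosphate, which recruits the kinase AKT. AKT holds FOXO transcription factors out of the nucleus and switches on mTORC1, the kinase complex that drives ribosome production, amino acid uptake and lipid synthesis. In B cells the antigen receptor feeds PI3K and, in parallel, the ERK and NF-kB pathways, whose first targets are short-lived transcripts such as EGR1 and the chemokine CCL3.

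The 6 libraries held 14023303 to 20859455 gene reads. B cell identity was checked first: MS4A1 was at 214 to 318 CPM (reads of a gene scaled to a common library size), CD79A at 337 to 416 CPM, PAX5 at 252 to 323 CPM and CD22 at 367 to 393 CPM over the 6 libraries. Of the T and NK cell markers CD3D and CD3G had no read in any library, and the list of 9 summed to 9.73 to 17 CPM, nearly all of it NKG7. The 9 myeloid markers summed to 4.69 to 6.42 CPM. The 9 stromal and epithelial markers summed to 61.7 to 79.6 CPM, from COL1A1, KRT8, KRT18 and CDH1, while DCN had 1 read in all. One protocol text in the labels speaks of retina; GNAT1 and OPN1SW had no read, and the 10 retina markers summed to 8.60 to 10.8 CPM, from PDE6B and NRL. The libraries therefore carried the markers of B cells and lacked the defining ones of retina and T cells.

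Copanlisib replicates 1 and 2 stood apart from replicate 3. Their unmapped reads were 8.73% and 5.22% of all reads, against 2.34% in replicate 3 and 2.05% to 2.52% in the DMSO libraries. Transcripts of the mitochondrial genome took 12.4% and 12.6% of gene reads in them, 10.1% in replicate 3 and 9.23% to 9.50% with DMSO. Their fold changes also ran with the GC content of the transcripts. Tested genes were cut by GC content into 5 groups of equal size. Replicate 1 on its own gave a median log2 fold change of 0.22 in the group of lowest GC and of −0.38 in that of highest GC. Replicate 2 gave 0.16 and −0.33, and replicate 3 gave −0.02 and 0.02. What set these libraries apart was not tested. Gene groups are therefore counted with 3 copanlisib libraries and again with replicate 3 standing alone for copanlisib at 4 h, and many single genes are given with both values. The second fit holds 16 libraries, shares copanlisib replicate 3 and the DMSO libraries with the first and is no independent repeat. Its log2 fold change is called the replicate-3 value. With 1 copanlisib library at 4 h, that fit takes its spread from the other groups and holds none for copanlisib at 4 h.

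**Figure D1:**
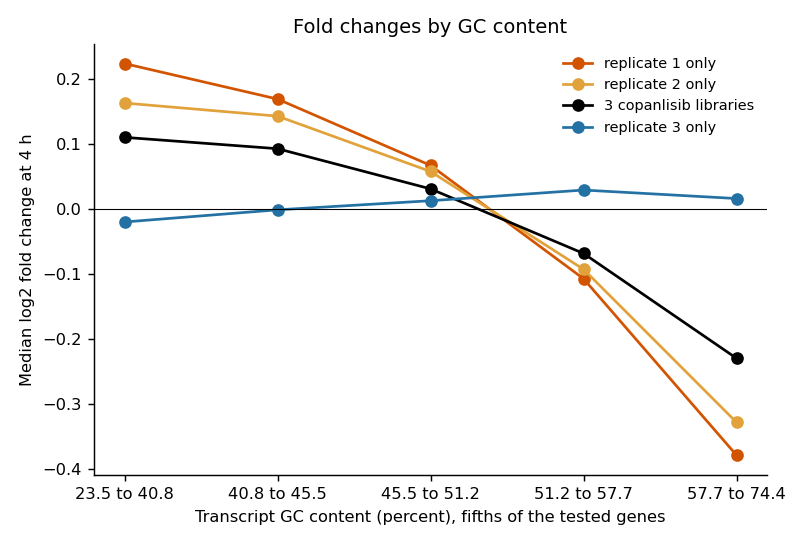
Median log2 fold change of copanlisib against DMSO at 4 h (vertical axis) in 5 equal groups of tested genes ordered by transcript GC content (horizontal axis, percent). The lines of replicates 1 and 2 fall from 0.22 and 0.16 to −0.38 and −0.33, while that of replicate 3 stays between −0.02 and 0.03.

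After 4 h of copanlisib, 1606 of 15130 tested genes were higher and 2127 lower by edgeR's quasi-likelihood test (Benjamini-Hochberg adjusted p under 0.05). That is 24.7% of genes in either direction, 10.6% higher and 14.1% lower, and each count of a gene group below reads against those shares. Of these, 1017 (6.72% of tested genes) were also called higher with replicate 3 alone and 1457 (9.63%) lower, and such genes are said to have passed both ways. No gene was called in opposite directions, which the libraries shared by both fits make likely beforehand. The changes were small for the most part: 96 genes were at least 2-fold higher and 159 at least 2-fold lower, of which 61 and 118 passed both ways. The median log2 fold change of all tested genes was −0.01, and 0.01 with replicate 3 alone. Genes that rose and passed both ways had a median GC content of 44.7% and those that fell 51.9%, around 48.0% for all tested genes. The calls that did not pass with replicate 3 lay further out, at 41.8% for genes that rose and 59.2% for genes that fell.

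**Figure D2:**
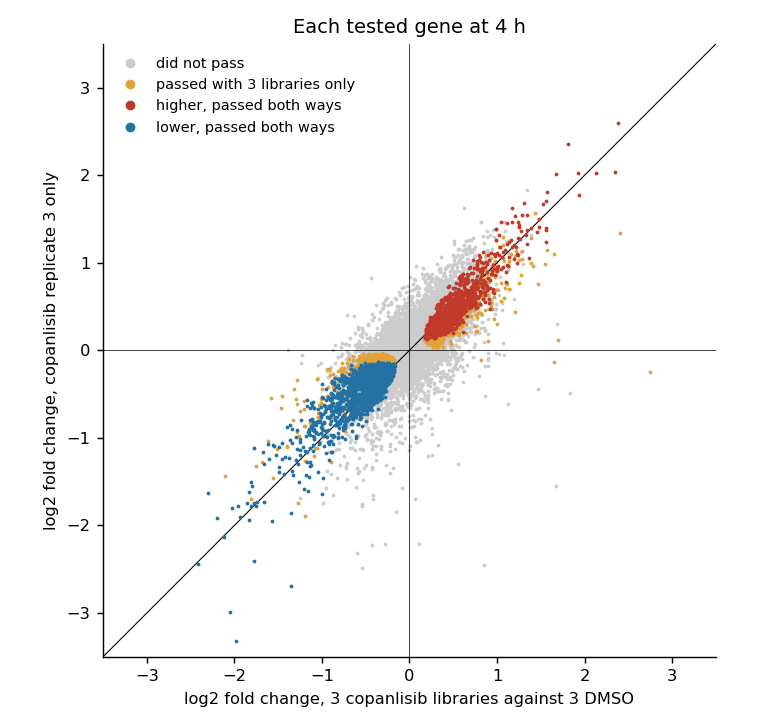
Each point is 1 of the tested genes, with its log2 fold change over 3 copanlisib libraries (horizontal) and with copanlisib replicate 3 alone (vertical); the diagonal marks equal values. The 1017 higher and 1457 lower genes that passed both ways lie in the upper right and lower left, and orange points passed with 3 libraries only.

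The gene with the highest fold change among well-measured protein-coding genes was TP53INP1, which encodes a nuclear and autophagy protein of the p53 and FOXO programs. It was at 199, 195 and 182 CPM in copanlisib replicates 1, 2 and 3 and at 69.9, 70.2 and 67.1 CPM with DMSO. Every copanlisib library was far above every DMSO library, replicate 3 included, and the log2 fold change came to 1.47 ± 0.06 (SE; edgeR adjusted p = 6.4e-07; replicate-3 value 1.41). TP63, a transcription factor of the p53 family, was at 51.3, 57.7 and 47.6 CPM against 21.6, 22.2 and 22.8 CPM. The groups of both genes did not overlap, which held for 40.5% of all tested genes. In bulk RNA, fewer cells with a transcript and less of it per cell cannot be told apart. Other large increases, by log2 fold change, were those of METTL7A (1.34), PIK3CG (1.22), CHRNA6 (1.12), TCAF2 (1.05), PIM2 (1.02), PDE4B (1.00), ATOSA (0.98), EVI2B (0.96), WWTR1 (0.95), YPEL2 (0.94), TRANK1 (0.94) and MBNL2 (0.94). They include PDE4B, a phosphodiesterase that degrades cyclic AMP, WWTR1, the transcriptional coactivator TAZ, and MBNL2, a regulator of splicing. EVI2B, a surface protein of blood cells, had the lowest replicate-3 value of these genes, at 0.67.

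Large decreases were in secreted signals, immediate early factors and stress genes. CCL3 (chr17:36088256-36090169, minus strand, GRCh38), a chemokine that activated B cells release to draw T cells, was at 5.32, 4.93 and 6.87 CPM with copanlisib and at 28.0, 22.6 and 27.7 CPM with DMSO. It fell by 2.19 ± 0.14 on the log2 scale (edgeR adjusted p = 7.4e-06; replicate-3 value −1.91), and no copanlisib library came near the lowest DMSO library. XCL1 (chr1:168576473-168582077, plus strand), lymphotactin, was at 19.6, 17.6 and 18.2 CPM against 82.2, 77.3 and 80.7 CPM. CHAC1, an enzyme that breaks down glutathione, was at 4.57, 5.13 and 6.08 CPM against 20.1, 18 and 18.2 CPM, and the groups of both genes were far apart. XCL1 has a near-identical neighbour, XCL2, and CCL3 has close copies, so reads that map to both were not counted and their levels are uncertain. Among protein-coding genes that passed both ways at an average log2 CPM of at least 3, the log2 fold changes of the other 12 of the 15 largest decreases were −1.85 for EGR3, −1.81 for FOSL1 and NR4A1, −1.76 for INHBE, −1.55 for DUSP2, −1.49 for EGR1, −1.45 for SLC7A5, −1.43 for NIPAL4, −1.42 for MFSD2A, −1.40 for SDF2L1, −1.34 for TNFRSF4 and −1.34 for STC2. In SDF2L1, a chaperone cofactor of the endoplasmic reticulum, and TNFRSF4, the costimulatory receptor OX40, replicate 3 stood between the other copanlisib libraries and DMSO: SDF2L1 was at 8.28, 8.47 and 15.3 CPM against 28.0, 25.7 and 30.6 CPM. Their replicate-3 values were −0.87 and −0.90.

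**Figure D3:**
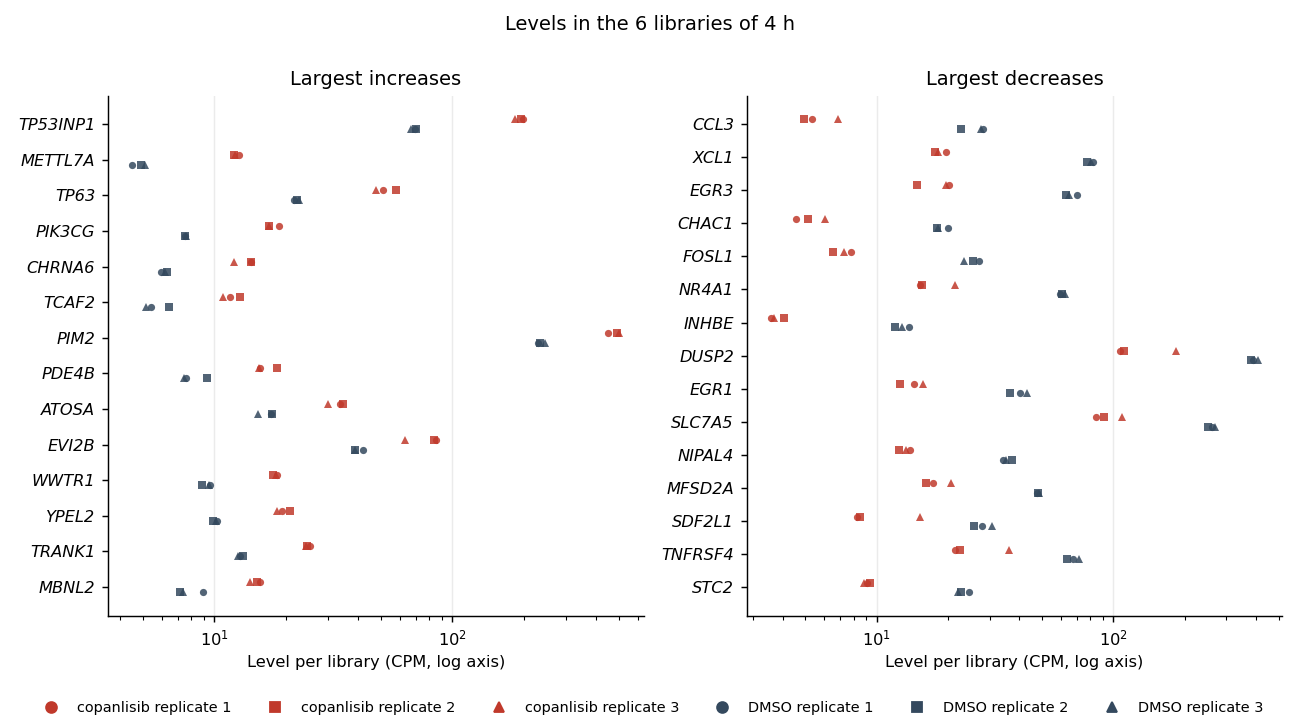
Level in CPM (log axis) of the named genes with the largest increases and decreases in each of the 6 libraries of 4 h; red marks copanlisib, the dark colour DMSO, and the symbol gives the replicate. The groups do not overlap in any of these genes, which the choice of genes required, and copanlisib replicate 3 (triangle) is the copanlisib library nearest to DMSO in most of them, among them DUSP2, SDF2L1 and TNFRSF4.

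Among 9 measured genes, the subunits of class I PI3K and the adaptor PIK3AP1, 3 rose, 2 fell and all 5 passed both ways, with a median log2 fold change of 0.15. PIK3CG (chr7:106865278-106907145, plus strand), the catalytic subunit gamma, was at 18.6, 16.9 and 17 CPM with copanlisib and at 7.5, 7.49 and 7.57 CPM with DMSO. Its log2 fold change came to 1.22 ± 0.10 (edgeR adjusted p = 3.5e-05; replicate-3 value 1.18). PIK3R5, which pairs with the gamma subunit, rose by 0.55 ± 0.08 and PIK3CA, the alpha subunit, by 0.58 ± 0.10 (replicate-3 values 0.68 and 0.33). The regulatory subunits PIK3R1 and PIK3R3, partners of alpha, beta and delta, fell by 0.29 ± 0.07 and 0.38 ± 0.09. PIK3CD, the delta subunit of lymphocytes, was at 399, 424 and 505 CPM against 404, 427 and 430 CPM. The groups overlapped and the log2 fold change of 0.08 ± 0.08 did not pass, but replicate 3 alone was above all DMSO libraries (replicate-3 value 0.27). PIK3R6, the other partner of gamma, did not pass with 3 libraries (0.15 ± 0.08), and its replicate-3 value was 0.25. The regulatory subunit PIK3R2 did not pass the filter on low counts.

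A list of phosphoinositide phosphatases, PI3K inhibitors and other phosphatases moved in both directions: of 10 measured, 3 rose, 2 fell and all 5 passed both ways. PIK3IP1, a membrane protein that restrains the catalytic subunit, was at 15.7, 15.6 and 17.6 CPM against 10.4, 10.7 and 10.0 CPM, without overlap (log2 fold change 0.65 ± 0.10, edgeR adjusted p = 0.0011, replicate-3 value 0.77). INPP4B and INPP5D (SHIP1), lipid phosphatases, rose by 0.40 ± 0.08 and 0.21 ± 0.06, while INPP5A and PHLPP2 fell by 0.44 ± 0.09 and 0.30 ± 0.09. Of 22 AKT and mTORC1 genes 4 rose and 5 fell, and 6 of these 9 passed both ways. RICTOR, the scaffold of mTORC2, and TSC1, a brake on mTORC1, rose by 0.53 ± 0.09 and 0.36 ± 0.08 (replicate-3 values 0.34 and 0.29). AKT1S1 (PRAS40), an mTORC1 subunit that AKT phosphorylates, was at 45.1, 40.2 and 54.9 CPM against 60.6, 74.2 and 71.4 CPM and fell by 0.56 ± 0.11 (replicate-3 value −0.33). DEPTOR, an inhibitor of both mTOR complexes, had a log2 fold change of 1.29 ± 0.43 from few reads, 0.68 to 0.90 CPM against 0.11 to 0.51 CPM.

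Receptors and adaptors upstream of PI3K moved 1 way: 4 of 9 rose, none fell, and the 4 passed both ways. GAB1, a docking protein that binds PI3K at receptors, was at 42.7, 43.1 and 34.6 CPM with copanlisib and at 20.8, 22.5 and 20.1 CPM with DMSO. All copanlisib libraries were higher, and the log2 fold change came to 0.92 ± 0.10 (edgeR adjusted p = 0.00015; replicate-3 value 0.71). FLT3, a receptor tyrosine kinase of early blood cells, rose by 0.62 ± 0.11, IGF1R, the receptor of insulin-like growth factors, by 0.48 ± 0.06, and the insulin receptor INSR by 0.26. Their replicate-3 values were 0.44, 0.52 and 0.21.

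Many members of a list of FOXO factors and genes that they switch on rose. Of 29 measured members 16 rose, none fell and 13 did not pass. The 16 passed both ways, and the median log2 fold change of the list was 0.50 (replicate-3 median 0.44), against −0.01 for all genes. TXNIP, an arrestin-like protein that lowers glucose uptake, was at 130, 143 and 127 CPM against 73.2, 71.4 and 69.9 CPM (0.90 ± 0.07, edgeR adjusted p = 2.1e-05). KLHL24, a ubiquitin ligase adaptor, was at 81.8, 85.8 and 73.2 CPM against 43.8, 46.1 and 41.1 CPM. In both genes the lowest copanlisib library was above the highest DMSO library. The sestrins SESN3 and SESN1, which restrain mTORC1, rose by 0.68 ± 0.09 and 0.65 ± 0.10, and CDKN1B, the cell cycle inhibitor p27, by 0.50 ± 0.07. FOXO1 itself rose by 0.35 ± 0.07. KLF2, a factor of resting lymphocytes, is the member in which the libraries differed most: it was at 0.47, 0.63 and 2.11 CPM with copanlisib and at 0.22, 0.99 and 0.70 CPM with DMSO. The groups overlapped and it did not pass (0.62 ± 0.59), while its replicate-3 value was 1.63.

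The promoters of the genes that moved were searched for the core letters bound by FOXO factors, TGTTTAC, on both strands, in the 300 bases around the start site given by RefSeq (GRCh38.p14). Genes were counted, and a match in any promoter of a gene was enough. The letters stood in 60 of 713 protein-coding genes (8.42%) that rose and passed both ways and in 29 of 1153 (2.52%) that fell. They stood in 355 of 10029 (3.54%) of all tested protein-coding genes with a promoter in the table. These sets held 1176, 1610 and 14735 promoters, so genes that rose had more promoters per gene. The part of this in the shares was not tested. The share over all promoters in the table, counted per promoter and not per gene, was 3.42%. Since promoters of genes that rose held less GC (median 61.0%, against 64.7% for all), the share was also taken within 5 groups of promoter GC. In genes that rose it was 11.1%, 9.02%, 9.01%, 4.72% and 5.47% from the lowest to the highest group, and in all tested genes 6.37%, 4.50%, 3.15%, 2.23% and 1.30%. In genes that fell it was 2.16%, 3.35%, 3.07%, 4.10% and 0.33%, so it was not under that of all tested genes in every group. A match is a run of letters and not a binding site, and these shares were not tested. Stretches around the match are printed for TXNIP and for SAMD9L, a gene that also rose, and for JUNB, an AP-1 subunit that fell and carries the same letters; capitals mark the match, on the strand of the gene.

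TXNIP chr1:145996671-145996729, minus strand: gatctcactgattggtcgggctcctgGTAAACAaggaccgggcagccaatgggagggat
SAMD9L chr7:93148511-93148569, minus strand: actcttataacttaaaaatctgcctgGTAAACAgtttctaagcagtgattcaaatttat
JUNB chr19:12791294-12791352, plus strand: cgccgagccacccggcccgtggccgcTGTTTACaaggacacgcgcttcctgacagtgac

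Feedback inhibitors of ERK signalling fell: 9 of 13 measured, none rose, 7 passed both ways, median −0.55. DUSP2, a nuclear phosphatase that inactivates ERK, was at 107, 111 and 183 CPM against 387, 381 and 409 CPM. Replicate 3 lay apart from the other copanlisib libraries but still under every DMSO library, and the gene fell by 1.55 ± 0.17 (edgeR adjusted p = 0.00014; replicate-3 value −1.09). SPRY4, a Sprouty inhibitor of receptor signalling, was at 12.7, 12.4 and 15 CPM against 27.1, 27.8 and 30.3 CPM. DUSP5 fell by 0.93 ± 0.06 and DUSP10, which acts on the JNK and p38 kinases, by 0.88 ± 0.14. DUSP6, added here after its values were seen, had the highest value of this list and did not pass (0.32 ± 0.20, replicate-3 value 0.59). The replicate-3 median of the list was −0.34. Of the EGR, NR4A, IER and other immediate early genes 13 of 16 fell, none rose, and all 13 passed both ways, with a median of −0.80 (replicate-3 median −0.68). EGR3 was at 20.3, 14.9 and 19.6 CPM against 70.1, 62.9 and 64.8 CPM. NR4A1, an orphan nuclear receptor induced by antigen receptor signals, was at 15.3, 15.6 and 21.4 CPM against 59.5, 60.4 and 62.4 CPM. In both genes every copanlisib library was far below every DMSO library. EGR4 was low, at 0.38, 0.19 and 0.63 CPM against 1.53, 1.74 and 2.58 CPM.

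Of 12 AP-1 subunits and relatives 11 fell, none rose and 9 passed both ways (median −0.59). FOSL1 was at 7.77, 6.53 and 7.29 CPM with copanlisib and at 27, 25.4 and 23.4 CPM with DMSO, without overlap (fell by 1.81 ± 0.10, edgeR adjusted p = 5.7e-06). FOSL2 fell by 1.02 ± 0.13. JUNB was at 78.1, 81.4 and 107 CPM against 170, 150 and 166 CPM (−0.87 ± 0.11, replicate-3 value −0.60), and the small MAF protein MAFK had a log2 fold change of −0.98 ± 0.16 (replicate-3 value −0.55). NF-kB subunits and inhibitors followed: 15 of 18 fell, none rose, 13 passed both ways (median −0.46, replicate-3 median −0.37). REL, the c-Rel subunit of lymphocytes, was at 37.7, 30.6 and 30.0 CPM against 65.5, 64.9 and 56.9 CPM. NFKBIA, the inhibitor IkB-alpha and itself an NF-kB target, was at 328, 323 and 359 CPM against 598, 558 and 574 CPM. The groups of both genes were apart, and REL fell by 0.93 ± 0.10 and NFKBIA by 0.78 ± 0.06. TRAF1, a signal adaptor, fell by 0.84 ± 0.07 and NFKB2, the precursor of p52, by 0.63 ± 0.09 (replicate-3 values −0.69 and −0.39). The lists of ERK feedback and AP-1 genes had a median transcript GC content of 50.4% and 58.9% and the NF-kB list 55.8%, against 48.0% for all tested genes. With GC curves removed library by library their medians were −0.54, −0.53 and −0.36.

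Of 19 chemokines and cytokines 11 fell, 2 rose and 12 of these 13 passed both ways. Beside CCL3 and XCL1, CCL4 was at 0.47, 0.73 and 0.58 CPM against 3.64, 3.28 and 2.74 CPM, and fell by 2.42 ± 0.24. LIF, a cytokine of the interleukin-6 family, was at 21.5, 19.3 and 26.6 CPM against 48.1, 49.4 and 51.2 CPM and fell by 1.14 ± 0.11 (edgeR adjusted p = 7.1e-05; replicate-3 value −0.90). VEGFA fell by 0.51 ± 0.06. Lymphotoxin beta, LTB, was at 6.87, 7.35 and 9.62 CPM against 6.92, 6.10 and 6.66 CPM. Its groups overlapped and the log2 fold change of 0.28 ± 0.15 did not pass, though replicate 3 was above every DMSO library. The 2 genes that rose, CXCL9 and CXCL10, are chemokines induced by interferon and fall outside the rule for named genes; they were picked out after their values were seen. CXCL10 was at 539, 535 and 429 CPM against 303, 294 and 293 CPM (0.76 ± 0.08, replicate-3 value 0.54).

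Genes of the first steps of B cell receptor signalling rose in part. Of 19 measured genes 5 rose, none fell and all 5 passed both ways, beside 10.6% of all genes. RASGRP3, which activates RAS below the receptor, was at 153, 148 and 134 CPM against 91.0, 95.7 and 96.6 CPM, without overlap (0.62 ± 0.07, edgeR adjusted p = 0.00016). BLK, a SRC family kinase, rose by 0.44 ± 0.07, the kinase SYK by 0.37 ± 0.07 and the adaptor BLNK by 0.43 ± 0.09. Their replicate-3 values were 0.59, 0.37 and 0.21. Among 14 inhibitory receptors and phosphatases 5 rose, 3 fell and 6 of these 8 passed both ways. CBLB, a ubiquitin ligase that ends receptor signals, was at 68.8, 70.7 and 58.3 CPM against 35.2, 37.8 and 33.6 CPM (0.89 ± 0.09, replicate-3 value 0.72). FCGR2B, the inhibitory Fc receptor, rose by 0.52 ± 0.10 and the collagen receptor LAIR1 by 0.44 ± 0.12. PTPN6, the phosphatase SHP-1, was at 237, 229 and 257 CPM against 430, 409 and 426 CPM, and fell by 0.81 ± 0.06 (replicate-3 value −0.71). Among these brakes SHP-1 was therefore lower, while CBLB and the Fc receptor were higher.

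Surface molecules of activated B cells fell in 9 of 22 cases and rose in 2, and 9 of these 11 passed both ways (median −0.16). IL21R, the interleukin-21 receptor, was at 129, 135 and 158 CPM against 205, 219 and 223 CPM (fell by 0.61 ± 0.08). ICAM1, the adhesion ligand of LFA-1, fell by 0.52 ± 0.06 and SLAMF1, a self-ligand receptor, by 0.43. Of 19 homing and migration genes 3 rose and 2 fell, and all 5 passed both ways. CXCR4, the receptor of the marrow chemokine CXCL12, was at 147, 155 and 152 CPM against 85.3, 85 and 89.2 CPM (0.81 ± 0.06, edgeR adjusted p = 1.9e-05, replicate-3 value 0.82). S1PR1, the receptor that leads lymphocytes out of tissue, rose by 0.50 ± 0.08 and SELPLG, a selectin ligand, by 0.59 ± 0.15. RGS16 and RGS1, which shorten the signals of chemokine receptors, fell: RGS16 was at 54.2, 52.5 and 65.8 CPM against 142, 133 and 136 CPM (−1.25 ± 0.09) and RGS1 at 219, 204 and 178 CPM against 298, 282 and 276 CPM (−0.51 ± 0.08). CXCR4, S1PR1 and SELPLG were thus higher and both RGS genes lower, and none of these 5 genes had groups that overlapped.

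Among 20 B cell transcription factors 6 rose, 5 fell and 9 of these 11 passed both ways. ETS1, a factor of resting lymphocytes, was at 138, 143 and 127 CPM against 81.4, 79.8 and 81.7 CPM (0.75 ± 0.06, edgeR adjusted p = 5e-05). TCF4, the E protein E2-2, rose by 0.59 ± 0.07. SPIB, an ETS factor of B cells, was at 36.9, 36 and 44.2 CPM against 61.1, 58.5 and 62.8 CPM and fell by 0.64 ± 0.09 (replicate-3 value −0.46). BACH2, a repressor of plasma cell fate, was low, at 0.68 to 1.08 CPM against 0.15 to 0.40 CPM. It passed with 3 libraries (1.39 ± 0.38) but not with replicate 3 alone (1.28). Of 15 plasma cell genes 5 rose, 5 fell and 8 of these 10 passed both ways. JCHAIN, the joining chain of secreted antibodies, was at 234, 225 and 191 CPM against 144, 142 and 144 CPM, and PRDM1, the factor BLIMP1, at 51.3, 48.6 and 41.2 CPM against 34.6, 32.5 and 30.0 CPM. Both rose without overlap, by 0.60 ± 0.08 and 0.54 ± 0.10, and CD38 by 0.51 ± 0.11. FKBP11, a folding enzyme of secretory cells, fell by 0.46. The surface proteoglycan SDC1 was at 35.2, 35.1 and 51.4 CPM against 56.6, 52.7 and 54.2 CPM. It passed with 3 libraries (−0.43) but not with replicate 3 alone (−0.08), which lay next to the DMSO libraries.

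Genes for making ribosomes fell nearly throughout. Of 38 ribosome biogenesis and nucleolar factors 35 fell and none rose, 33 passed both ways, and the median log2 fold change was −0.61 (replicate-3 median −0.55). NOP16, a nucleolar factor, was at 37.8, 35.4 and 40.0 CPM with copanlisib and at 80.8, 74.1 and 79.0 CPM with DMSO (fell by 1.05 ± 0.07, edgeR adjusted p = 1.5e-05). RRS1, needed for the large subunit, was at 15.5, 14.3 and 18.1 CPM against 34.4, 34.3 and 32.7 CPM, and PNO1, a factor of the small subunit, at 42.1, 39.3 and 35.8 CPM against 77.9, 73.2 and 69.7 CPM. The groups of the 3 genes were far apart. PPAN and LYAR fell by 0.98 ± 0.11 and 0.95 ± 0.10. Of 28 subunits and factors of RNA polymerases I and III 14 fell, none rose and 12 passed both ways. POLR3G of RNA polymerase III fell by 0.82 ± 0.11 and POLR1B, a core subunit of RNA polymerase I, by 0.74 ± 0.07. Pseudouridine synthases and tRNA methyltransferases fell in 13 of 21 cases, with none higher and 11 passing both ways. PUS7 was at 15.5, 16.6 and 14.2 CPM against 30.9, 32.1 and 28.6 CPM, and WDR4 and METTL1, the partners that methylate tRNA, fell by 0.88 ± 0.10 and 0.85 ± 0.09.

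The ribosome's own proteins did not follow. Of 50 cytosolic ribosomal protein genes 3 fell, none rose and none passed both ways, with a median of −0.06 and a replicate-3 median of 0.00. RPLP2 was at 548, 599 and 829 CPM against 951, 795 and 914 CPM, so that replicate 3 lay among the DMSO libraries. Many of these genes have processed copies in the genome, and their levels are uncertain. Of 39 mitochondrial ribosomal protein genes 11 fell, none rose and 9 passed both ways (median −0.12), beside 14.1% of all genes. Of 45 nuclear genes of the respiratory chain 6 fell and none passed both ways. Translation factors lay between: 11 of 32 initiation and elongation factors fell, none rose and 9 passed both ways. EIF4E, the cap-binding factor, was at 23.7, 24.7 and 24 CPM against 34.3, 35.2 and 36.2 CPM (fell by 0.55 ± 0.07, replicate-3 value −0.55). EIF4G1, its scaffold, was at 332, 339 and 380 CPM against 489, 487 and 469 CPM. Of 22 cytosolic aminoacyl-tRNA synthetase genes 13 fell, none rose and 12 passed both ways. MARS1, which charges methionine, was at 160, 165 and 173 CPM against 231, 233 and 233 CPM (fell by 0.48 ± 0.06), and GARS1, for glycine, fell by 0.45 ± 0.06.

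**Figure D4:**
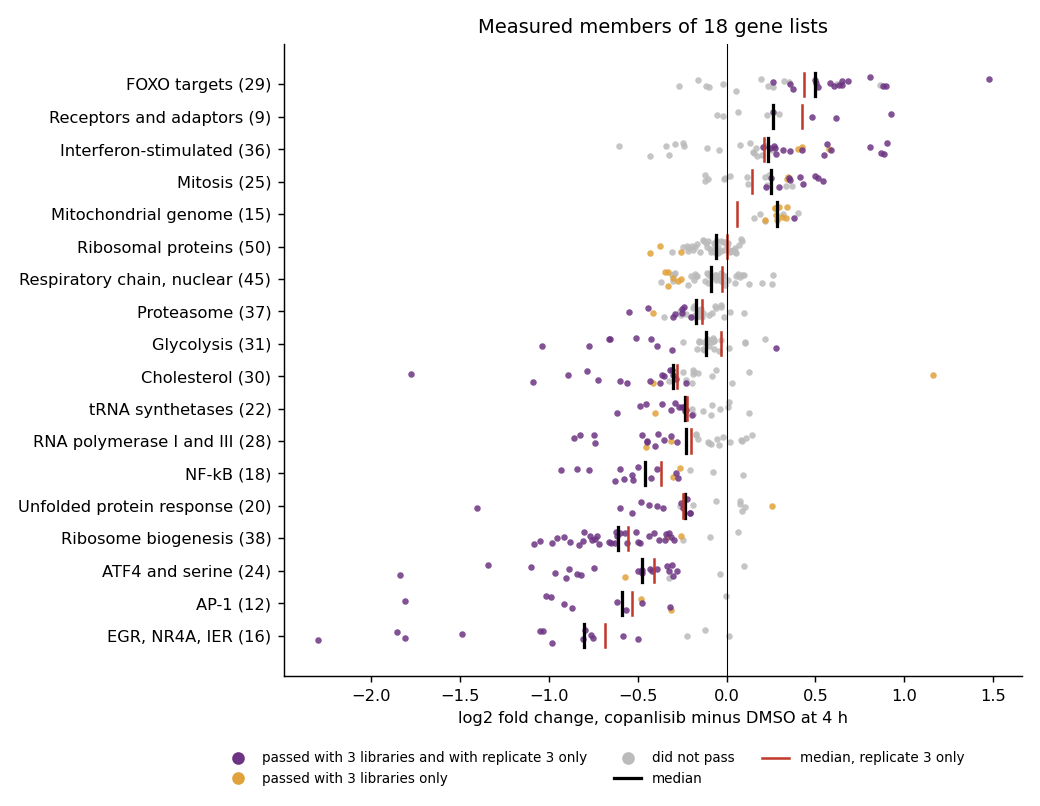
Log2 fold change at 4 h (horizontal) of every measured member of 18 gene lists, with the number measured in parentheses; black bars are medians over 3 copanlisib libraries and red bars with replicate 3 alone. Ribosome biogenesis (median −0.61) and EGR, NR4A and IER genes (−0.80) lie to the left of ribosomal proteins (−0.06), and the red bar of the mitochondrial genome (0.06) lies apart from its black bar (0.29).

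Amino acid uptake and synthesis fell. Of 19 amino acid transporters 9 fell and 1 rose, and all 10 passed both ways. SLC7A5, the LAT1 transporter of leucine and other large amino acids, was at 84.4, 91.2 and 109 CPM against 261, 250 and 268 CPM. No copanlisib library came near a DMSO library, and the fall was 1.45 ± 0.09 (edgeR adjusted p = 5.7e-06; replicate-3 value −1.24). SLC1A5, the glutamine transporter, was at 104, 115 and 138 CPM against 235, 242 and 250 CPM, and SLC7A11, the cystine transporter, at 9.41, 7.4 and 8.14 CPM against 16.5, 19.5 and 15.2 CPM. ATF4 is the transcription factor that induces such genes when amino acids are short, and here 21 of 24 genes of its response and of serine and one-carbon synthesis fell, none rose and 20 passed both ways (median −0.48, replicate-3 median −0.41). TRIB3, a pseudokinase induced by ATF4, was at 22.4, 23.2 and 30.5 CPM against 46.5, 45.5 and 49.8 CPM and fell by 0.90 ± 0.11. STC2 was at 9.08, 9.38 and 8.82 CPM against 24.6, 22.7 and 22 CPM, and its replicate-3 value of −1.38 was close to the value of −1.34 from 3 libraries. CEBPB had −0.96 ± 0.14 and PYCR3, a proline synthesis enzyme, −1.10 ± 0.11. Of 20 genes of endoplasmic reticulum stress 12 fell and all 12 passed both ways, while 1 rose. HSPA5, the chaperone BiP, was at 480, 488 and 445 CPM against 690, 679 and 669 CPM (fell by 0.53 ± 0.06), and HERPUD1 fell by 0.48 ± 0.05. Of 25 heat shock and chaperonin genes 9 fell, none rose and all 9 passed both ways, led by CCT6A (−0.38 ± 0.06).

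Other letters were counted in the same promoters. Genes with a match in any promoter were again counted. The E-box CACGTG, which MYC and its partners bind, stood in 207 of 1153 genes (17.95%) that fell and passed both ways. It stood in 75 of 713 (10.5%) of those that rose and in 12.9% of all. The cAMP response element TGACGTCA stood in 6.42%, 1.82% and 3.76%. The composite letters TGATGCAA bound by ATF4 were rare, in 17 of 1153 (1.47%), 3 of 713 (0.42%) and 0.75%. The last 2 letters of the ATF4 run, read on the other strand, can be the first 2 of an E-box, and each motif was counted on its own. None of these shares was tested. Counted per promoter over the whole table, the shares were 7.26% for the E-box, 1.85% for the cAMP response element and 0.87% for the ATF4 letters. The E-box is printed for SLC7A5, for ODC1 and SRM of polyamine synthesis and for HK2, which all fell, and for ATOSA, which rose. HERPUD1 shows the ATF4 letters and AIMP2, a scaffold of the tRNA synthetase complex that fell by 0.36, the cAMP response element. Capitals mark the match; the HERPUD1 stretch also holds the E-box letters, left in lower case, and HK2 holds a further E-box that is not printed.

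SLC7A5 chr16:87869606-87869663, minus strand: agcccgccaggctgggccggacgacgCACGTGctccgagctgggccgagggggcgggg
ODC1 chr2:10448013-10448067, minus strand: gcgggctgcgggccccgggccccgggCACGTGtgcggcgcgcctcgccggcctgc
SRM chr1:11060186-11060243, minus strand: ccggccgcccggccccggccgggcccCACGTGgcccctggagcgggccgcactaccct
HK2 chr2:74834950-74835007, plus strand: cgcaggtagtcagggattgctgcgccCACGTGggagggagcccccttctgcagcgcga
ATOSA chr15:52679389-52679428, minus strand: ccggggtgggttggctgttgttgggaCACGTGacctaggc
HERPUD1 chr16:56931940-56931999, plus strand: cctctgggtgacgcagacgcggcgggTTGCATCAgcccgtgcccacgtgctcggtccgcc
AIMP2 chr7:6009177-6009236, plus strand: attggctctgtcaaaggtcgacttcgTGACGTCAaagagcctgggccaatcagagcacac

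MYC, the factor behind many growth genes, was at 138, 141 and 147 CPM with copanlisib and at 239, 228 and 227 CPM with DMSO. The groups were far apart, and MYC fell by 0.70 ± 0.06 (edgeR adjusted p = 3.7e-05; replicate-3 value −0.65). MNT, a repressor that competes with MYC for the partner MAX, had −0.82 ± 0.12 (replicate-3 value −0.54), and of 11 genes of this network 4 fell and 1 rose, of which 3 and none passed both ways. Polyamine synthesis fell in 7 of 14 genes, with none higher and 6 passing both ways. ODC1, its rate-limiting enzyme, was at 75.3, 80.0 and 81.5 CPM against 126, 116 and 125 CPM (fell by 0.63 ± 0.06). MAT2A, which makes the methyl donor S-adenosylmethionine, was at 456, 452 and 419 CPM against 704, 756 and 722 CPM. SRM, spermidine synthase, was at 51.7, 57.7 and 72.6 CPM against 95.1, 94.6 and 99.3 CPM, with replicate 3 nearest to DMSO (−0.67 ± 0.11, replicate-3 value −0.40). Of 19 genes of purine and pyrimidine synthesis 11 fell, 1 rose and 9 passed both ways. DHODH, a mitochondrial step of pyrimidine synthesis, fell by 0.70 ± 0.10 and CTPS1, which makes CTP, by 0.50 ± 0.06 (replicate-3 values −0.59 and −0.56).

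Lipid synthesis fell in 17 of 30 cholesterol genes, with 1 higher, and in 12 of 19 fatty acid genes, with 2 higher. Of the cholesterol genes 16 passed both ways and of the fatty acid genes 12. SREBF1, a transcription factor of lipid synthesis, was at 25.5, 27.9 and 43.4 CPM against 64.8, 72.1 and 68.4 CPM. FASN, fatty acid synthase, was at 196, 214 and 331 CPM against 507, 532 and 531 CPM. No copanlisib library reached a DMSO library, but replicate 3 stood apart in both: SREBF1 and FASN had the same log2 fold change of −1.09 and the same replicate-3 value of −0.66. ACACA, the first enzyme of fatty acid synthesis, differed little between replicates, at 37.3, 35.7 and 37.7 CPM against 54.6, 62.9 and 55.2 CPM (fell by 0.64 ± 0.08, edgeR adjusted p = 0.00031). SCD, the desaturase, fell by 0.44 ± 0.05 and DHCR7, the last step to cholesterol, by 0.89 ± 0.08. In CYP51A1 the level was low, 0.52 to 1.59 CPM against 3.32 to 3.57 CPM. SREBF2, a member of the cholesterol list added here after its values were seen, did not pass (−0.16 ± 0.08, replicate-3 value 0.05).

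Of 31 genes of glucose uptake, glycolysis and hypoxia 8 fell, 1 rose and all 9 passed both ways, with a median of −0.12. HK2, the inducible hexokinase, was at 65.6, 63.0 and 62.4 CPM with copanlisib and at 135, 127 and 130 CPM with DMSO. It fell in every replicate to a similar level, by 1.03 ± 0.06 (edgeR adjusted p = 5.7e-06; replicate-3 value −1.06). PFKFB3, which makes an activator of glycolysis, was at 53.6, 56.4 and 62.6 CPM against 89.7, 92.1 and 90.8 CPM. SLC16A1, the lactate carrier MCT1, fell by 0.66 ± 0.07, and SLC16A3, the lactate carrier MCT4, was at 59.7, 65.9 and 104 CPM against 137, 122 and 132 CPM (−0.78 ± 0.16, replicate-3 value −0.33).

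CCND1 and CCND2, D cyclins that carry cells out of G1, fell. Of 21 measured genes of cell cycle control 6 fell and 4 rose, and 7 of these 10 passed both ways. CCND1 was at 6.82, 7.4 and 9.51 CPM against 18.4, 16.1 and 16.4 CPM and fell by 1.10 ± 0.13 (replicate-3 value −0.82). CCND2 was at 484, 490 and 493 CPM against 622, 620 and 618 CPM (fell by 0.34 ± 0.05, edgeR adjusted p = 0.00096). CCND3, added here after its values were seen, did not pass (−0.21 ± 0.11, replicate-3 value 0.03). CDKN1B and RB1, which hold cells in G1, rose by 0.50 ± 0.07 and 0.56 ± 0.11. Mitotic genes went up: of 25 measured 12 rose, none fell and 10 passed both ways (median 0.25, replicate-3 median 0.14). HMMR, a spindle protein, was at 64.8, 67.2 and 51.1 CPM against 41.3, 45.0 and 39.6 CPM (0.54 ± 0.10, replicate-3 value 0.29), and KIF11, the spindle motor Eg5, at 89.7, 90.2 and 70.2 CPM against 61.5, 60.3 and 55.6 CPM. Replicate 3 was the lowest copanlisib library in both, and the median GC content of the mitotic list was low, 42.5%. Of 29 replication genes 2 rose, PRIM1 (0.49 ± 0.11) and ORC6 (0.25), and none fell.

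Among 16 BCL2 family genes 2 rose, 3 fell and 4 of these 5 passed both ways. BMF, a pro-apoptotic protein that binds BCL2, was at 51.1, 58.7 and 61.0 CPM against 30.6, 32.6 and 33.2 CPM (0.82 ± 0.08, edgeR adjusted p = 0.00011, replicate-3 value 0.93). The survival gene MCL1 also rose, by 0.46 ± 0.06, while the survival genes BCL2A1, an NF-kB target, and BCL2L1, which encodes BCL-XL, fell. BCL2A1 was at 108, 105 and 93.3 CPM against 155, 154 and 151 CPM and BCL2L1 at 133, 143 and 147 CPM against 197, 199 and 203 CPM. BCL2 was at 295, 298 and 262 CPM against 295, 293 and 292 CPM and did not pass (−0.04 ± 0.06). Replicate 3 alone was below every DMSO library (replicate-3 value −0.16). The PIM kinases, which phosphorylate targets shared with AKT, split: PIM2 was at 449, 491 and 503 CPM against 230, 234 and 246 CPM and PIM1 at 62.5, 67.4 and 69.4 CPM against 49.1, 49.97 and 48.9 CPM. PIM2 rose by 1.02 ± 0.06 and PIM1 by 0.43 ± 0.07. PIM3 was at 73.6, 79.7 and 127 CPM against 215, 213 and 231 CPM and fell (−1.24 ± 0.16, replicate-3 value −0.79). All 3 passed both ways. Of 21 p53 family members and targets 10 rose and 5 fell, and 11 of these 15 passed both ways. Beside TP53INP1, TP63 and SESN1, RRM2B, a ribonucleotide reductase subunit, rose by 0.54 ± 0.07, while AEN, a nuclease, fell by 0.55 ± 0.11 (replicate-3 value −0.28).

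Interferon-stimulated genes rose in 18 of 36 cases, none fell and 15 passed both ways, with a median of 0.23 and a replicate-3 median of 0.21. IFIT2, an antiviral RNA-binding protein, was at 27.2, 27.3 and 19.9 CPM with copanlisib and at 13.3 CPM in each DMSO library (0.90 ± 0.12, edgeR adjusted p = 0.00066, replicate-3 value 0.59). SAMD9L, a translation repressor of antiviral defence, was at 24.7, 22.4 and 19.3 CPM against 12.5, 12.4 and 11.2 CPM, and its neighbour SAMD9 rose by 0.87 ± 0.15. In these genes replicate 3 was the lowest copanlisib library and still above DMSO. The list had a median GC content of 45.3%. SOCS3 and SOCS1, which damp cytokine receptors, had log2 fold changes of −1.14 ± 0.15 and −0.77 ± 0.18 (replicate-3 values −0.97 and −0.29); SOCS1 was at 35.4, 37.1 and 62.2 CPM against 85.4, 70.2 and 74.0 CPM.

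Transcripts of the mitochondrial genome depended on the libraries. Of 15 measured 10 passed as higher with 3 libraries, and 1 with replicate 3 alone; the median was 0.29, and 0.06 with replicate 3. MT-ATP6 was at 6440, 6721 and 4929 CPM against 4919, 4865 and 4811 CPM, so replicate 3 was next to DMSO. MT-ND5 was at 7775, 8006 and 6552 CPM against 5680, 5968 and 5510 CPM and passed both ways (0.38 ± 0.08, replicate-3 value 0.20). The unmapped reads of the same libraries stand above, and their part in this result was not tested.

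To see which effects belonged to 4 h, the log2 fold change at 4 h was set against the mean of those at 8 h and 12 h in 1 edgeR fit of all 18 libraries. The difference passed in 24.7% of 16124 genes, and in 4.99% with replicate 3 standing alone for copanlisib at 4 h; 396 genes were higher at 4 h and 305 lower in both fits. SPIB was lower with copanlisib at 4 h and higher at 12 h. Its log2 fold changes were −0.64, 0.15 and 0.51 at 4, 8 and 12 h, a difference of −0.96 (edgeR adjusted p = 5.3e-08). KREMEN2, a coreceptor of the WNT inhibitor DKK, had −0.70, 0.28 and 0.40, but its groups came close at 4 h, 18.6, 22.9 and 37.2 CPM against 40.7, 40.3 and 46.3 CPM, and its replicate-3 value of −0.19 did not pass. DUSP2, NR4A1 and CHAC1 were further below DMSO at 4 h than at the mean of the later times, with differences of −0.96, −0.90 and −0.84. On the other side PIK3CG had 1.22, 0.63 and 0.29. FAM111B, DTL, FANCM and CENPE, which serve DNA replication, repair and chromosome movement, had log2 fold changes of 0.78, 0.47, 0.52 and 0.51 at 4 h, where FANCM did not pass with replicate 3 alone (0.38), and values of −0.09, −0.13, −0.21 and −0.17 at 8 h and −0.20, −0.43, −0.40 and −0.37 at 12 h. FAM111B was at 79.3, 77.5 and 58.4 CPM against 47.6, 45.6 and 32.9 CPM at 4 h, where replicate 3 was the lowest of its group and above each DMSO library.

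**Figure D5:**
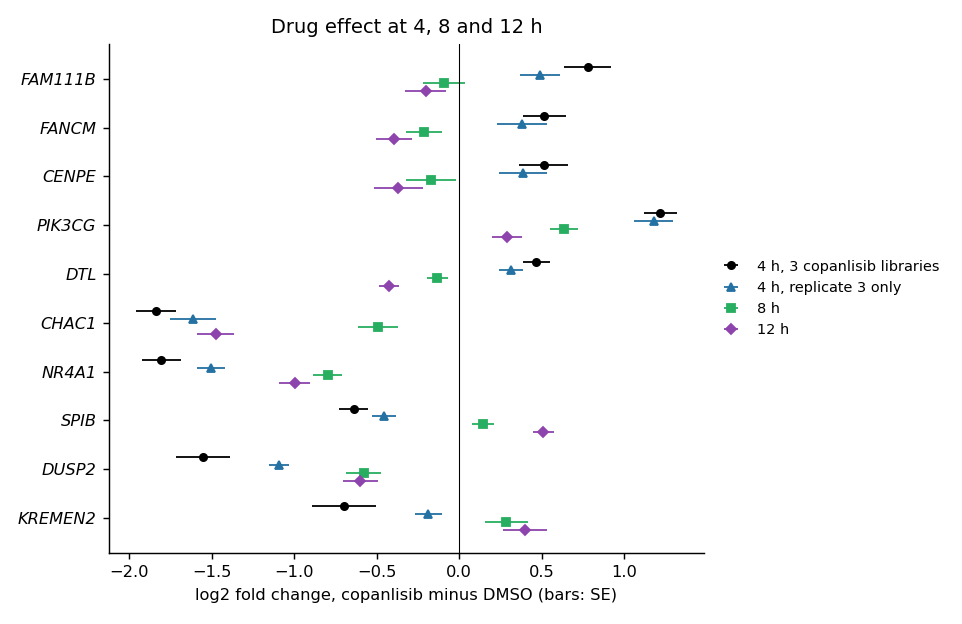
Log2 fold change of copanlisib against DMSO (horizontal, bars are SE) at 4 h with 3 copanlisib libraries and with replicate 3 alone, at 8 h and at 12 h, for the 10 named genes whose 4 h effect differed from the later ones. SPIB and KREMEN2 go from negative to positive after 4 h, and FAM111B, DTL, FANCM and CENPE from positive to negative. PIK3CG declines from 1.22 to 0.29.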

How the data were processed

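RNA of HAIR-M cells was sequenced from 18 libraries, 3 for each treatment and time. The deposited files are count tables, whole numbers of reads per gene identifier that the authors made; STAR 2.5.2b, CASAVA 1.7 and hg38 are named per the submitters' processing notes, while for the annotation no version is given in the sources used here. The count column for the reverse strand was used, which held 94.3% to 95.3% of stranded gene reads in the 4 h libraries. The 4 summary lines per table (unmapped, multimapping, no gene and ambiguous) stayed out of library sizes. In the 4 h libraries reads at several places were 9.21% to 9.75%, outside genes 10.4% to 12.5% and ambiguous 2.04% to 2.45% of all reads, and they reach no gene, so near-identical copies are undercounted. Of 60483 identifiers 56321 were named from a gene name table and 432 from GENCODE 29.

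Genes passing edgeR's expression filter were tested (15130, holding at least 99.83% of gene reads) with edgeR 4.0.16 in R 4.3.3: TMM scaling and the quasi-likelihood test on the 6 libraries of 4 h. CPM of single genes are TMM-scaled, except those of the cell type markers in the opening, which are scaled by gene reads alone. Replicate 3 as the only copanlisib library of 4 h was fitted with the other times, with the spread taken from all 16 libraries. Alternatives used DESeq2 1.42.0, limma 3.58.1, GC curves (lowess span 0.3, for the 99.3% of tested genes with a GC content), other filters and libraries left out. The code was tested on simulated data. Depth of this size leaves genes under about 1 CPM imprecise.

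Named genes were, by log2 fold change, 15 from each end of the protein-coding genes that passed both ways without overlap at an average log2 CPM of at least 3. To these came up to 5 called members per list, all members of short lists and 20 fixed genes. Also named were 5 differences each way from later times, again without overlap of the 4 h groups. The members and lists were chosen with earlier results of these data known. Promoters are RefSeq's, GRCh38.p14; 10029 of 12312 tested protein-coding genes matched. Of 1154 list entries 1152 matched. Some genes that the rule names are not reported here.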

Additional observations from a re-analysis of the deposited data

Results flagged for a closer look

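The effect at 4 h differed from the mean effect at 8 h and 12 h for the genes below, by a test of the difference itself in edgeR over 18 libraries, and the difference also passed with replicate 3 standing alone for copanlisib at 4 h. Given are the 5 largest in each direction among protein-coding genes at an average log2 CPM of at least 3 whose difference passed in both fits. Genes whose copanlisib and DMSO libraries of 4 h overlapped were left out of this choice. FAM111B had a difference of 0.94 on the log2 scale (adjusted p = 0.00018), FANCM of 0.83, CENPE of 0.79, PIK3CG of 0.77 and DTL of 0.76. With replicate 3 alone these were 0.63, 0.68, 0.65, 0.71 and 0.59. KREMEN2 had −1.04 (edgeR adjusted p = 7.9e-05), DUSP2 −0.96, SPIB −0.96, NR4A1 −0.90 and CHAC1 −0.84, and with replicate 3 alone −0.53, −0.51, −0.79, −0.61 and −0.64. The transcripts of FAM111B, FANCM and CENPE had a GC content of 37.4%, 37.7% and 35.3%, and those of KREMEN2, DUSP2 and CHAC1 of 68.8%, 63.9% and 62.6%. The part of the GC trend of copanlisib replicates 1 and 2 in these differences was not tested beyond the values with replicate 3.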

How the results depend on the processing

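Against 3733 genes called with 6 libraries, 6195 were called over all 18 libraries, 7594 by limma-voom with sample quality weights, and 1621 at an adjusted p under 0.01. Those weights were 0.98, 2.39 and 0.21 for copanlisib replicates 1, 2 and 3, so replicate 3 counted least. For DMSO they were 1.19, 1.20 and 1.44. Alone, copanlisib replicate 1 gave 6778, replicate 2 gave 6237 (both added after seeing the data) and replicate 3 gave 3790. Leaving out each library in turn gave 1714 to 7296: 2484, 1861 and 7296 without copanlisib replicates 1, 2 and 3, and 2003, 2052 and 1714 without DMSO replicates 1, 2 and 3. GC curves gave 5525, DESeq2 3347, no filter 4275, counts without strand 3690. At an unadjusted p under 0.05, 5793 genes passed. Differences from later times, 3989 in all, were 2305 with GC curves, 804 with replicate 3 alone and 2460 to 6776 without each library in turn (2495 without copanlisib replicate 2, 6776 without replicate 3, 2531 without DMSO replicate 3). The cause was not tested.

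Same-numbered libraries shared little of their deviations from the group means (correlations of 0.047, 0.0047 and 0.12). The gap between copanlisib replicate 3 and the others could mask a pairing, so these values cannot decide it. The replicate block gave 4487 genes and 4030 differences, and 5574 genes with GC curves, and lost no call among the genes named.

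Among the genes named here, sign changes were found only in genes that did not pass. KLF2 had −0.50 and −0.10 with replicate 1 or 2 alone and −0.29 to 1.08 without each library in turn, PIK3CD −0.0439 with replicate 1 alone and −0.0165 to 0.145, and BCL2 0.00742 by limma-voom, 0.0392 and 0.0382 with replicate 1 or 2 alone and −0.0754 to 0.0284. CCND3 had 0.0349 with replicate 3 alone and 0.0320 in a fit of 4 libraries of 4 h, and SREBF2 had 0.0460 with replicate 3 alone. Among the genes named, MT-ATP6, RPLP2, SDC1, BACH2, INPP5D, ORC6, CENPE and KREMEN2 lost their call without any 1 of the DMSO libraries. Transcripts under about 1 CPM in at least 1 of the groups of 4 h, such as BACH2, DEPTOR, KLF2, EGR4 and CCL4, rest on few reads there.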

Other observations

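Host genes of small nucleolar RNAs and growth-linked long noncoding RNAs fell in 12 of 21 cases at 4 h, none rose and 11 passed both ways, with a median log2 fold change of −0.23. SNHG15 had −1.004, SNHG4 −0.89, SNHG17 and MIR17HG, the host of the miR-17 cluster, −0.82 each. In antisense and long intergenic transcripts fewer genes fell than rose. Of 805 antisense genes 95 rose and 24 fell, of which 57 and 17 passed both ways, and of 670 long intergenic genes 87 rose and 19 fell, of which 46 and 10 did. Their median log2 fold changes were 0.22 and 0.17, against −0.03 for 12313 protein-coding genes. These transcripts were low, with a median average log2 CPM of 0.79 and 0.78 against 4.91 for protein-coding genes.

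Proteasome subunits fell in 9 of 37 cases, none rose and 8 passed both ways. PSMB10, an immunoproteasome subunit, had −0.55 and a replicate-3 value of −0.24. Of 24 KLF, BTG and TOB genes of resting lymphocytes 6 rose and 1 fell, of which 5 and 1 passed both ways, with BTG1, an antiproliferative factor, at 0.38. Of 34 lysosome and autophagy genes 5 rose and 3 fell, of which 2 and 2 passed both ways. Of 22 HLA and antigen presentation genes 1 rose and 2 fell, of which 1 and 1 did, with TAP2, a peptide transporter subunit, at −0.36. Of 16 JAK, STAT and SOCS genes 4 rose and 5 fell, of which 3 and 3 passed both ways. Over all tested genes 10.6% rose and 14.1% fell, and 6.72% and 9.63% did so both ways.

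Other letters were searched in promoters on both strands, and genes with a match in any promoter were counted. The EGR letters GCGTGGGCG stood in 1.26% of genes that rose and passed both ways, 2.25% of those that fell and 1.64% of all tested. The NF-kB letters GGGACTTTC stood in 1.12%, 0.69% and 0.56%, and the ETS letters ACTTCCGG in 6.87%, 11.01% and 10.2%. TGACGTAA stood in 0.70%, 0.87% and 0.83%. Counted per promoter over the whole table, the shares were 0.79%, 0.39%, 4.14% and 0.42%. These shares were not tested.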
